A study of Mus musculus with 87 samples.

Results

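Microtubules and actin filaments are built from small families of near-identical subunits, and the 10 genes described here encode 4 alpha-tubulins, 3 beta-tubulins and 2 actins, together with stathmin, a protein that takes microtubules apart. They were taken by symbol from the deposited table, as the rows named Tuba1a, Tuba1b, Tuba1c, Tuba4a, Tubb2a, Tubb5, Tubb6, Stmn1, Actb and Actg1. The rule that picks the rows uses the symbols alone, and the set itself was drawn up with earlier results of these data known. All 10 are protein-coding, each symbol names a single row, and they are 10 of the 37991 genes in the table. The question the samples address is how transcript levels in the liver change after partial hepatectomy (PH, surgical removal of most of the liver mass) and which of those changes also follow a sham operation, in which the liver is left whole.

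Each sample was poly(A) RNA from 1 liver of a male C57BL/6 mouse, and surgery was at ZT2, counted in hours from lights on. The age of 12 to 14 weeks is that at surgery, so livers taken post-PH at 1 and 4 weeks came from older mice. P values therefore measure the spread between livers. Livers from mice that were not operated on were taken at 0 h (group C0, 9 livers), at the hour of day that matches 4 h (C4, 3 livers) and at 4 weeks (C4W, 2 livers). Sham livers were taken at 1 h (S1, 6 livers), 4 h (S4, 5), 10 h (S10, 3), 20 h (S20, 3) and 48 h (S48, 3). Livers post-PH were taken at 1 h (X1, 6), 4 h (X4, 3), 10 h (X10, 6), 20 h (X20, 6), 28 h (X28, 3), 36 h (X36, 6), 44 h (X44, 3), 48 h (X48, 5) and 72 h (X72, 3). The last post-PH livers came from 1 week (X1W, 3 livers) and 4 weeks (X4W, 2 livers). A sham group existed at only 5 of the post-PH hours, so the values at 28, 36, 44 and 72 h and at 1 week had no sham liver beside them.

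The study lists its livers under 3 experimental periods. C0 livers came from all 3, with 3 livers each. S1, S4, X1, X10, X20 and X36 livers came from periods 1 and 2, S48, X28, X44, X48, X72 and X1W livers from period 1, S10, S20, C4W and X4W livers from period 2, and C4 livers from period 3. Of the X4 livers, drawn from periods 1 and 2, those with values were replicates 4 to 6, taken to be of period 2. The list gives numbers of livers and not the replicates, which are taken here to be numbered in the order of the periods. PH and sham livers at 48 h were thus of 1 period, whereas at 10 and 20 h the sham livers were all of period 2 and the post-PH livers of both. Every comparison was therefore also fitted with the period as a term.

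The values are log2 RPKM, the number of reads scaled to exon length and library size, on a log2 scale, and every gene of the 10 lay above the detection level of -1.5 in all 80 livers. The reads behind each liver, estimated from the steps between low values, ran from 12.1 M (mega) to 48.8 M reads per liver, and the median liver had 26.7 M. The fewest reads estimated for any member in any liver were 26.9, for Tubb6, so its lowest values carry the most counting error. Hepatocyte markers summed to between 27319 and 59887 RPKM in these livers. Replicate 8 of C0 stood apart from the other C0 livers: 7 macrophage markers summed to 148 RPKM there against a C0 median of 24.5, and 7 neutrophil markers to 50.4 against 1.16. Calls made against C0 are therefore also given without it. In bulk liver RNA, fewer cells of a type and less RNA per cell cannot be told apart.

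Microtubules grow and shrink by adding and losing dimers of alpha-tubulin and beta-tubulin. Alpha-tubulin is encoded here by Tuba1a, Tuba1b, Tuba1c and Tuba4a, and beta-tubulin by Tubb2a, Tubb5 and Tubb6. Stathmin, the product of Stmn1, binds free dimers, promotes microtubule shrinkage and is switched off by phosphorylation as cells enter mitosis, when the spindle is built. Beta-actin (Actb) and gamma-actin (Actg1) form the filaments of the cell cortex, line the bile canaliculi of hepatocytes and make the contractile ring that divides a cell, and both are known targets of serum response factor. Tubulin mRNAs are also controlled by the tubulin already present, through the nascent chain made from the first 4 codons. The first 30 coding bases are shown for that reason, and because they let the near-identical alpha-tubulins be compared by eye, with the first 12 bases in capitals (mouse build NCBIM37, coding strand, from the GENCODE M1 transcripts, read for 9 of the 10 genes).

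Tuba1a: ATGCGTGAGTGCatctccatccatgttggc
Tuba1b: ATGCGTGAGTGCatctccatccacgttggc
Tuba1c: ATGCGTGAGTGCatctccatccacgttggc
Tuba4a: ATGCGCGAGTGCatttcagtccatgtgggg
Tubb2a: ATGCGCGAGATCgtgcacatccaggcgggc
Tubb5: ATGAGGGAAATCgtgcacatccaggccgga
Stmn1: ATGGCATCTTCTgatattcaggtgaaagag
Actb: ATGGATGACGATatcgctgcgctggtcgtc
Actg1: ATGGAAGAAGAAatcgccgcactcgtcatt

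Tuba1a, Tuba1b and Tuba1c lie side by side on chromosome 15, at chr15:98780272-98783982 on the minus strand, chr15:98761856-98764996 on the minus strand and chr15:98860322-98868536 on the plus strand. Their coding sequences are 98.3% identical between Tuba1a and Tuba1b, 97.6% between Tuba1a and Tuba1c and 98.4% between Tuba1b and Tuba1c. Tuba4a, on chromosome 1, is 85.3% to 85.6% identical to them. The beta-tubulins are further apart, at 84.6% between Tubb2a and Tubb5, 83.6% between Tubb2a and Tubb6 and 80.7% between Tubb5 and Tubb6. Actb and Actg1 are 88.6% identical. In build mm9 (NCBIM37) Tuba4a spans chr1:75211549-75215828, Tubb2a chr13:34166170-34169877, Tubb5 chr17:35970871-35975251, Actb chr5:143664794-143668433 and Actg1 chr11:120207004-120209856, all on the minus strand, and Stmn1 spans chr4:134024235-134029758 on the plus strand. Tuba4a overlaps Stk16 on the opposite strand, which the strand-specific counting keeps apart.

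Because the reads were 100 bases long, every 100-base window of each gene's transcripts was looked for, letter for letter, in the transcripts of all other genes of an annotation of 37310. Windows found in another gene made up 47.6% of Tuba1a, 58.6% of Tuba1b and 53.6% of Tuba1c, and for Tuba1c all of them were shared with Tuba1a or Tuba1b. The Tuba1 genes also shared windows with the pseudogenes Gm17383 (28.8% of Tuba1a), Gm14150 (28.4% of Tuba1b), Gm5620 and Gm6682. For Tubb2a 36.6% of windows were shared, all with Tubb2b. For Actg1 47.1% were shared, mainly with the pseudogene Gm12715 (43.5% of windows), and for Stmn1 32.3%, all with the pseudogene Gm11223. Actb shared 0.639% of its windows, and Tuba4a, Tubb5 and Tubb6 shared none. A read that matched several places was split evenly among them when the table was made, so the levels of Tuba1a, Tuba1b and Tuba1c are uncertain one against another, as are those of Tubb2a and Tubb2b. The rows of the sharing genes, which receive part of the same reads, moved the same way. At 48 h after PH the log2 fold change against sham was 4.78 ± 0.29 (SE) for Gm11223 and 0.87 ± 0.31 for Tubb2b. At 4 h it was 3.02 ± 0.37 for Gm12715.

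**Figure D1:**
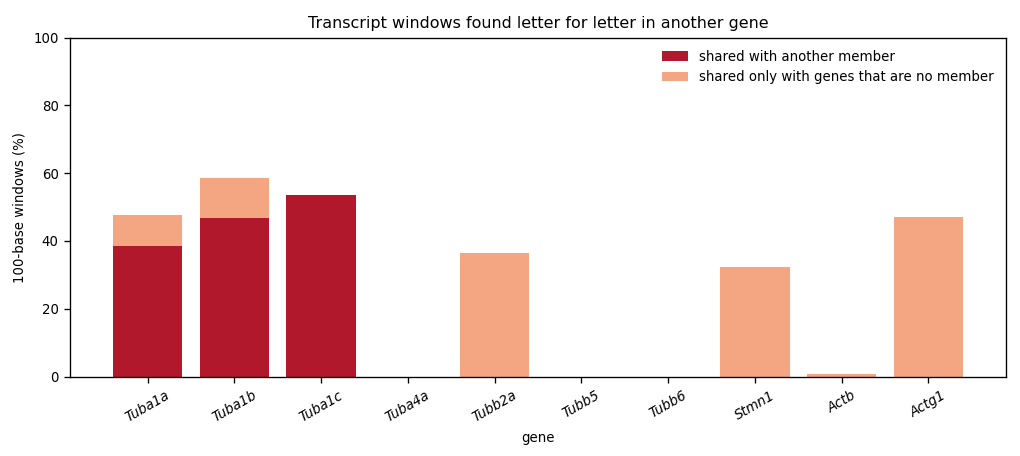
Share of each gene's 100-base transcript windows (y axis, percent) that also occur in another gene (x axis, the 10 genes), split into windows shared with another of the 10 genes (dark) and windows shared only with other genes (light). The Tuba1 genes, Tubb2a, Stmn1 and Actg1 share between 32.3% and 58.6% of their windows, and Tuba4a, Tubb5 and Tubb6 share none.

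Over the 19 groups the 10 genes spanned very different ranges. The highest group mean exceeded the lowest by 77.6-fold for Stmn1, 32.4-fold for Tubb6, 20.2-fold for Tubb5, 11.8-fold for Tuba1b, 11.7-fold for Actg1, 11.6-fold for Tubb2a, 7.19-fold for Tuba1a, 6.91-fold for Tuba1c, 3.79-fold for Tuba4a and 2.97-fold for Actb. The maximum fell at 44 h post-PH for Tuba1b, Tubb2a, Tubb5, Tubb6 and Stmn1, at 48 h for Tuba1a and Tuba1c, at 4 h for Actg1, at 10 h for Actb, and in the C4W livers for Tuba4a. The lowest mean fell at 4 h post-PH for 6 of the 10 genes. Sorted by mean level, most neighbouring groups overlapped in their livers: the number of overlapping pairs among 18 was 18 for Actb, 17 for Tuba1c, Tuba4a, Tubb2a, Tubb5, Tubb6 and Actg1, 16 for Tuba1a and Tuba1b, and 14 for Stmn1. For the 7 genes whose maximum fell at 44 or 48 h, the X44 and X48 livers overlapped each other and lay above every X72 liver.

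**Figure D2:**
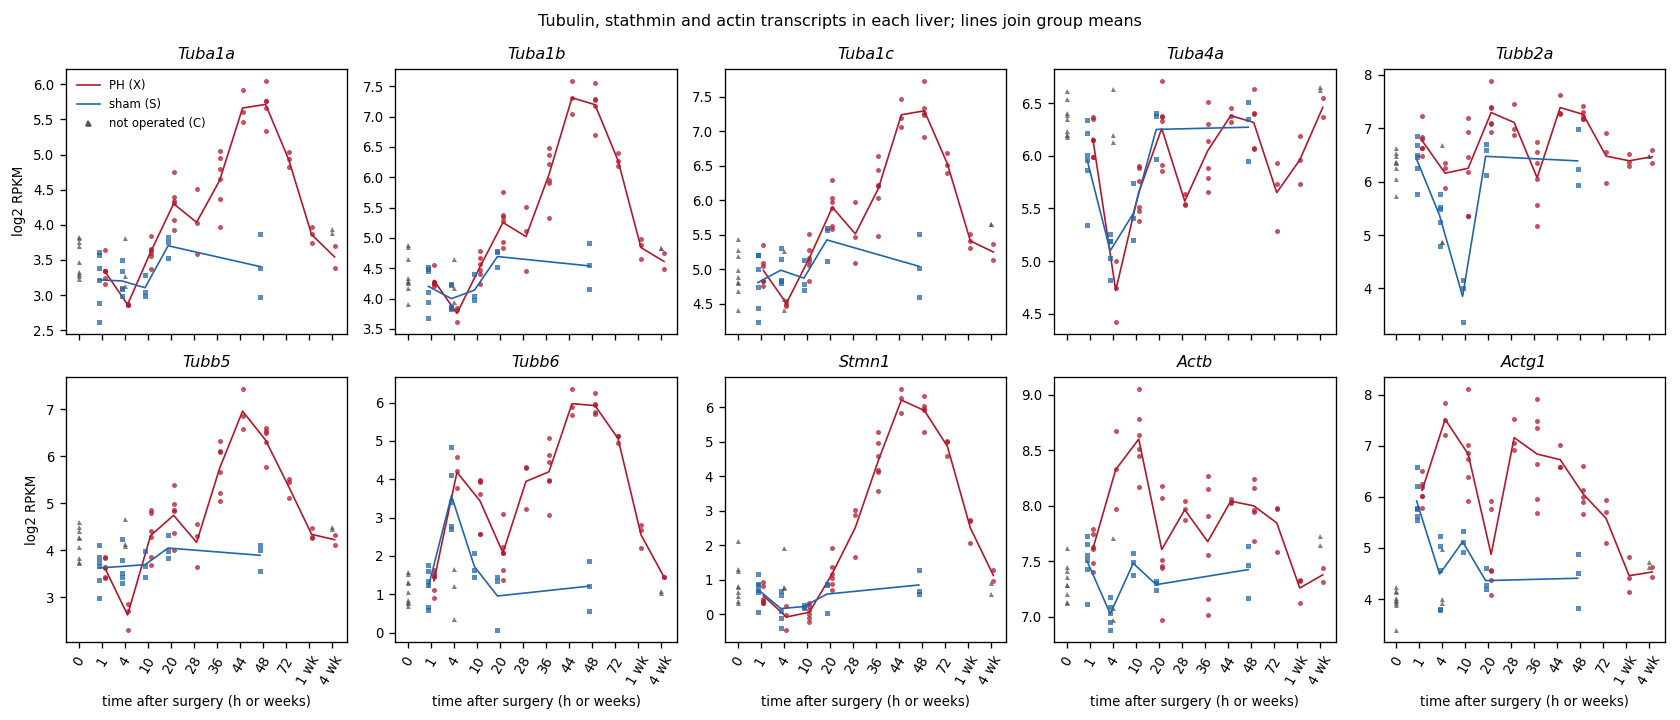
Log2 RPKM (y axis, own scale in each panel) of the 10 genes in each liver by time after surgery (x axis, categories, not to scale), with post-PH livers in red, sham livers in blue, livers that were not operated on in grey and lines through the group means. The Tuba1 genes, Tubb5, Tubb6 and Stmn1 are highest at 44 and 48 h post-PH, Actg1 and Actb are already high at 4 and 10 h, and Tubb2a falls in the sham livers at 10 h to a mean of 3.85.

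The 3 Tuba1 genes moved as a set. Tuba1b ranged from 3.91 to 4.88 with a median of 4.29 in C0, and measured 3.84, 3.81 and 3.62 at 4 h post-PH, 7.59, 7.30 and 7.05 at 44 h, and 6.70, 7.18, 7.27, 7.56 and 7.29 at 48 h. The S48 livers measured 4.15, 4.55 and 4.91. Every X44 and X48 liver therefore lay above every C0 and S48 liver, and the X4 livers lay below every C0 liver. Against C0 the log2 fold change of Tuba1b was -0.64 ± 0.19 (SE, adjusted p = 0.00309) at 4 h, 0.84 ± 0.15 at 20 h (adjusted p = 3.3e-06), 1.63 ± 0.15 at 36 h (adjusted p = 6.5e-15) and 2.89 ± 0.19 at 44 h (adjusted p = 3.03e-21). Tuba1a reached 5.92, 5.61 and 5.46 at 44 h and Tuba1c 7.46, 7.19 and 7.07, from C0 medians of 3.48 and 4.89. Over the 19 group means Pearson's r was 0.99 for each of the 3 pairs (0.993, 0.990 and 0.987). That is a description only, since the 3 rows share reads.

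Tuba4a, the alpha-tubulin with no shared window, followed another course. It ranged from 6.18 to 6.61 in C0 with a median of 6.35, and measured 4.74, 5.00 and 4.42 at 4 h post-PH and 5.03, 4.82, 5.19, 5.26 and 5.20 at 4 h after sham surgery. Both 4 h groups lay below every C0 liver and below the C4 livers taken at the same hour of day (6.14, 6.63 and 6.20). Against C0 the log2 fold change was -1.62 ± 0.16 in X4 (adjusted p = 2.89e-13) and -1.24 ± 0.13 in S4 (adjusted p = 3.7e-12). At 44 h post-PH it measured 6.45, 6.32 and 6.38, within the C0 range, with a log2 fold change of 0.04 ± 0.16 (95% interval -0.29 to 0.36). It was also lower at 28 h (5.64, 5.54 and 5.53) and at 72 h (5.73, 5.29 and 5.94), where the log2 fold changes against C0 were -0.77 ± 0.16 (adjusted p = 7.01e-05) and -0.69 ± 0.16 (adjusted p = 0.000225).

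The make-up of the alpha-tubulin transcripts changed with these courses. Summed over the 4 genes, RPKM was 147 ± 21.7 (SD, n = 9) in C0, 70.3 ± 6.47 (n = 3) in X4, 447 ± 63 (n = 3) in X44 and 443 ± 77.8 (n = 5) in X48, and 147 ± 34.7 (n = 3) in S48. Tuba4a supplied 56.1% ± 3.25 of that sum in C0, 53.6% ± 2.89 in S48 and 18.4% ± 3 in X48. The lowest share in C0 was 51.1% and the highest in X48 was 22.3%, so the groups did not overlap. RPKM is corrected for transcript length, so these shares compare levels between genes, with the reservation that the Tuba1 rows share reads, also with pseudogenes. Counting those pseudogene reads as Tuba1 would raise the sums and lower the Tuba4a shares. The rows of Gm17383 and Gm14150 averaged 8.43 and 10.8 RPKM in C0 and 44.6 and 69.9 in X48. Those of Gm5620 and Gm6682 averaged 4.41 and 5.74 in C0 and 26.2 and 41.2 in X48. Shares with them were not computed.

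**Figure D3:**
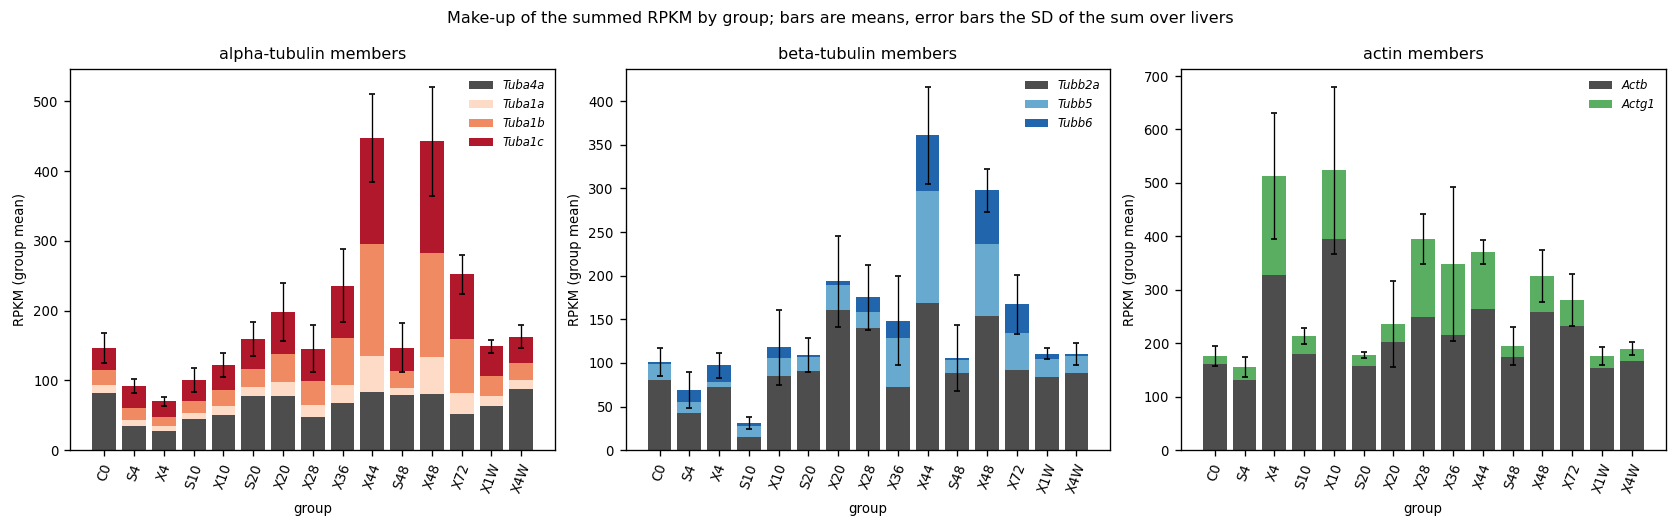
Mean RPKM (y axis, from 0) of the alpha-tubulin, beta-tubulin and actin genes stacked by gene in 15 of the 19 groups (x axis), with the SD of the sum over livers as error bars. Tuba4a supplies most of the alpha-tubulin sum in C0 and 18.4% of it in X48, and the actin sum is largest in X4 and X10.

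Among the beta-tubulins, Tubb5 fell and then rose. It ranged from 3.74 to 4.60 in C0 (median 4.25), and measured 2.85, 2.31 and 2.71 in X4, below every other group's livers, then 7.43, 6.86 and 6.59 in X44. The S4 livers measured 3.79, 3.31, 4.24, 3.43 and 3.52, so at 4 h the PH livers were the lower ones. The log2 fold change against C0 was -1.5 ± 0.24 at 4 h (adjusted p = 1.95e-07) and 2.78 ± 0.24 at 44 h (adjusted p = 3.71e-16).

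Tubb6, a beta-tubulin of low level in the C0 livers, was high at 4 h and again late. It ranged from 0.68 to 1.59 in C0 (median 1.06), and measured 4.85, 3.40, 4.12, 2.79 and 2.70 at 4 h after sham surgery and 4.57, 3.77 and 4.22 at 4 h post-PH. Both 4 h groups lay above every C0 liver and overlapped each other. The later sham livers measured 1.44, 2.08 and 1.64 at 10 h and 0.07, 1.34 and 1.46 at 20 h. Post-PH it ranged from 2.56 to 3.99 at 10 h, from 1.37 to 3.11 at 20 h and from 3.06 to 5.07 at 36 h, and measured 6.35, 5.89 and 5.68 at 44 h. Against C0 the log2 fold change was 2.35 ± 0.27 in S4 (adjusted p = 4.21e-11), 2.95 ± 0.33 in X4 (adjusted p = 1.24e-11) and 4.72 ± 0.33 in X44 (adjusted p = 3.86e-20).

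Tubb2a was the most abundant beta-tubulin of the 3 in C0, where it supplied 79.6% ± 3.68 (SD, n = 9) of their summed RPKM, and its largest difference was a fall in the sham livers. It ranged from 5.74 to 6.64 in C0 (median 6.36), and measured 4.01, 4.16 and 3.38 at 10 h after sham surgery, below every liver of every other group. The X10 livers ranged from 5.36 to 7.19 with a median of 6.33, which spans the C0 range. The log2 fold change against C0 was -2.44 ± 0.29 in S10 (adjusted p = 1.54e-10) and -0.06 ± 0.23 in X10 (95% interval -0.51 to 0.39). The C4 livers measured 4.87, 6.69 and 4.87, so a liver that was not operated on could also be low at ZT6. C4 was called lower than C0 for this gene alone of the 10 (-0.83 ± 0.29, adjusted p = 0.0376), where 7.89% of all genes were called, a call lost without replicate 1, 2, 3 or 6 of C0 or replicate 1 or 3 of C4, and with the period as a term (-0.63, adjusted p = 0.32). Tubb2b, the near-copy that shares windows with Tubb2a, had a mean of 2.75 RPKM in S10 and 15.8 RPKM in X10. Since its row receives part of the same reads, it is not a separate observation. Markers of other cell types were also lower in S10 than in C0. All 4 smooth muscle markers tested were called lower (median log2 fold change -1.57), and their list summed to between 0.994 and 2.43 RPKM in S10, between 4.18 and 16.7 in C0 and between 4.91 and 15.8 in X10. Of the stellate and fibroblast markers 6 of 8 were lower, with sums from 30.1 to 43.7 RPKM in S10, from 52.2 to 88.7 in C0 and from 46.5 to 57.7 in X10. Of the endothelial markers 5 of 8 were lower, with sums from 14.5 to 18.1 RPKM in S10, from 14.7 to 40.1 in C0 and from 12.8 to 19.7 in X10. In X10 against C0, 0 of 4 smooth muscle, 4 of 8 stellate and fibroblast and 2 of 8 endothelial markers were called lower. The part of these cells in the Tubb2a level was not tested.

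Stmn1 had the widest range. It ran from 0.32 to 2.13 in C0 (median 0.78), and measured -0.02, 0.24 and -0.45 in X4, 3.01, 2.88 and 1.66 in X28, 6.52, 6.26 and 5.83 in X44, 5.27, 5.95, 6.03, 6.32 and 5.92 in X48, 4.60, 5.01 and 4.99 in X72 and 2.74, 2.07 and 2.69 in X1W. The S48 livers measured 0.60, 1.28 and 0.67, all within the C0 range. Against C0 the log2 fold change was -0.83 ± 0.26 in X4 (adjusted p = 0.00521), 5.11 ± 0.26 in X44 (adjusted p = 1.05e-26) and still 1.46 ± 0.26 in X1W (adjusted p = 1.57e-05). The X4 call was lost without replicate 6 of X4, and against C0 replicates 4 to 6 alone the value was -0.54 (adjusted p = 0.139).

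Actg1 rose first of the 10 genes, at 1 h. It ranged from 3.39 to 4.23 in C0 (median 3.98). At 1 h it ranged from 5.79 to 6.50 post-PH and from 5.55 to 6.58 after sham surgery, so the X1 and S1 livers overlapped and both lay above every C0 liver. At 4 h it measured 7.22, 7.51 and 7.83 post-PH against 4.57, 5.04, 5.23, 3.81 and 3.79 after sham surgery. The log2 fold change against C0 was 2.14 ± 0.26 in X1 (adjusted p = 1.14e-09), 1.94 ± 0.26 in S1 (adjusted p = 8.47e-08), 3.53 ± 0.33 in X4 (adjusted p = 2.87e-14) and 0.52 ± 0.28 in S4 (95% interval -0.04 to 1.07, adjusted p = 0.103). A second high level followed a lower one: the X20 livers ranged from 4.08 to 5.91, the X28 livers measured 7.05, 7.52 and 6.91, and the X44 livers 7.01, 6.59 and 6.58. In X36 replicates 1 to 3 measured 7.91, 7.34 and 7.48 and replicates 4 to 6 measured 5.97, 5.68 and 6.65, the widest spread of any Actg1 group (SD 0.89). In X20 replicates 1 and 2 (5.76 and 5.91) also lay above the other 4 livers.

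Actb, the most abundant of the 10 genes in C0 (161 ± 18.3 RPKM, SD, n = 9), had the narrowest range. It ran from 7.12 to 7.62 in C0 (median 7.29), measured 7.97, 8.33 and 8.67 in X4, and ranged from 8.17 to 9.05 in X10. The S4 livers measured 6.96, 7.03, 7.18, 6.88 and 7.09 and the S10 livers 7.38, 7.57 and 7.49, so post-PH and sham livers did not overlap at either hour. The log2 fold change against C0 was 1.00 ± 0.18 in X4 (adjusted p = 1.89e-06) and 1.28 ± 0.14 in X10 (adjusted p = 2.95e-12). The 2 actins together summed to 177 ± 19.1 RPKM (SD, n = 9) in C0, 513 ± 118 (n = 3) in X4 and 524 ± 156 (n = 6) in X10. Actg1 supplied 8.99% ± 1.44 of that sum in C0 and 36.4% ± 0.68 in X4. These shares leave out reads given to the pseudogene Gm12715, whose row averaged 13.9 RPKM in C0 and 163 in X4, beside 15.8 and 186 for Actg1. With that row counted as Actg1 the shares were 15.6% ± 2.32 and 51.7% ± 0.66.

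RefSeq promoters (build GRCm38.p6) were given for 7 of the 10 genes (Tuba1a, Tuba1b, Tuba1c, Tuba4a, Tubb2a, Tubb5 and Actg1). Those of Actg1, the gene that rose first, and of Tubb5, which fell and then rose and shares no window with another gene, are shown as the 200 bases before the start site on the coding strand, with CCAAT boxes and, in Actg1, a CArG box in capitals. They are chr11:120348496-120348695 and chr17:35838302-35838501, both on the minus strand.

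Actg1: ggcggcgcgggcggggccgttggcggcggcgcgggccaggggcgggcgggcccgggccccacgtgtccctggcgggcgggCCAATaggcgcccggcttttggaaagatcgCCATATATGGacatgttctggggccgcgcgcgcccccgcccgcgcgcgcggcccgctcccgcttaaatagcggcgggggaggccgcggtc
Tubb5: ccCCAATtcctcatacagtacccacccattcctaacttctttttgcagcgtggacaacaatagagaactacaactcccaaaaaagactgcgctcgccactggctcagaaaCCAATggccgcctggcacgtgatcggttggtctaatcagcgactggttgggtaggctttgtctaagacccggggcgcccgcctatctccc

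In the 250 bases before the start, searched on both strands, Actg1 held a CArG box, the core to which serum response factor binds, starting at -90, and a CCAAT box starting at -120. A CArG box occurs in 1.47% of the 32851 promoters in the table and a CCAAT box in 33.8%. No CArG box was found in the windows of the other 6 genes. CCAAT was found in Tuba1a, Tuba1c, Tubb5 (2 matches) and Actg1, and not in the windows of Tuba1b, Tuba4a and Tubb2a. Also searched were the CHR element (TTTGAA), found in none of the 7 windows and in 16.0% of all promoters, the TATA box (TATAAA), found in Tubb2a and in 12.4%, the GC box (GGGCGG), found in Tuba1a, Tuba1b, Tuba4a, Tubb2a and Actg1 and in 32.7%, and the CRE core (TGACG), found in Tuba1c, Tuba4a and Tubb2a and in 17.8%. A match of letters is a description of the window and says nothing of binding.

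PH was set against sham surgery at the same hour and ZT. Calls needed a log2 fold change beyond 0.5 together with an adjusted p under 0.05, from limma with the Benjamini-Hochberg method over 15396 genes. At 1 h none of the 10 genes was called, none had an unadjusted p under 0.05, and 0.65% of all genes tested were called. The largest difference at 1 h was that of Tubb2a, 0.35 ± 0.25 (95% interval -0.15 to 0.84). At 4 h 3 of the 10 were called, where 8.64% of all genes were: Actg1 was higher by 3.02 ± 0.36 (adjusted p = 7.19e-09, 8.09-fold), Actb higher by 1.30 ± 0.19 (adjusted p = 1.17e-06) and Tubb5 lower, at -1.01 ± 0.26 (adjusted p = 0.00434). Without X4 replicate 5 the Tubb5 call was lost (-0.85, adjusted p = 0.0562), as it was against S4 replicates 4 and 5 alone (-0.83, adjusted p = 0.071). With the period as a term all 3 were kept and Tubb2a was also called higher (0.98, adjusted p = 0.0231). The sham livers of replicate 4 and 5 had lower Actg1 than replicates 1 to 3, and the post-PH livers with values at 4 h were replicates 4 to 6.

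At 10 h 4 of the 10 were called, all higher post-PH, where 7.02% of all genes were called and 3.4% called higher. They were Tubb2a (2.38 ± 0.30, adjusted p = 9.72e-08), Actg1 (1.71 ± 0.35, adjusted p = 0.000478), Tubb6 (1.65 ± 0.35, adjusted p = 0.000677) and Actb (1.12 ± 0.19, adjusted p = 2.2e-05). With the period as a term the same 4 were called. For all 4 every X10 liver lay above every S10 liver, where the livers of 17.6% of all genes did not overlap. Neither Stmn1 (-0.13 ± 0.28, 95% interval -0.69 to 0.42) nor any alpha-tubulin was called at this hour.

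At 20 h 2 of the 10, Tuba1a (0.59 ± 0.19, adjusted p = 0.027) and Tubb6 (2.03-fold, 95% interval of the log2 fold change 0.33 to 1.72, adjusted p = 0.0392), were called higher, where 7.11% of all genes were called and 4.49% called higher. Both calls were lost with the period as a term (Tuba1a 0.47, adjusted p = 0.0714, and Tubb6 0.84, adjusted p = 0.0921). They also rested on few livers. Leaving out S20 replicate 1, S20 replicate 2 or X20 replicate 1 lost each of them, and leaving out X20 replicate 2, 3 or 6 also lost Tubb6. With X20 replicates 1 to 3 alone, taken to be of the other period than the S20 livers, 6 members were called. With replicates 4 to 6 alone, taken to be of the same period as the S20 livers, 0 were. A term for the replicate number, or for the triplicate that it falls in, gave 5. Both terms set the S20 livers with X20 replicates 1 to 3, those taken to be of the other period. In X20, Tubb5 measured 5.40, 4.98 and 4.87 in replicates 1 to 3 and 4.84, 4.01 and 4.37 in replicates 4 to 6.

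At 48 h 9 of the 10 were called, all higher post-PH, where 27.2% of all genes were called and 24.5% called higher. Stmn1 was higher by 4.86 ± 0.29 (adjusted p = 2.28e-23, 29.1-fold) and Tubb6 by 4.56 ± 0.36 (adjusted p = 2.09e-17, 23.6-fold). Next came Tuba1b at 2.65 ± 0.21 (adjusted p = 2.23e-17), Tubb5 at 2.43 ± 0.26 (adjusted p = 5.06e-12), Tuba1a at 2.28 ± 0.19 (adjusted p = 5.68e-16) and Tuba1c at 2.24 ± 0.21 (adjusted p = 5.21e-14). Actg1 was higher by 1.64 ± 0.36 (adjusted p = 0.000167), Tubb2a by 0.87 ± 0.31 (adjusted p = 0.0189) and Actb by 0.57 ± 0.19 (adjusted p = 0.0123). All S48 and X48 livers were of period 1, so the period as a term leaves these differences as they are and is no check on them. The same 9 were called with it. For all 9 every X48 liver lay above every S48 liver, where the libraries of 45.9% of all genes did not overlap. Tuba4a was the exception, at 0.04 ± 0.18 (95% interval -0.31 to 0.40), with S48 livers at 5.95, 6.35 and 6.51 and X48 livers from 6.07 to 6.63. The median of the 10 differences was 2.26 and that over all genes 0.27.

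The small differences at 48 h depended on how the libraries were scaled. When all libraries were instead brought to a common median, the median over all genes went from 0.27 to -0.10 and the share of calls that were higher from 90.1% to 38.8%. Actb then differed by 0.08 (adjusted p = 0.795) and Tubb2a by 0.38 (adjusted p = 0.373), so neither was called, and the other 7 calls were kept. Without S48 replicate 1 neither Actb (0.44, adjusted p = 0.112) nor Tubb2a (0.64, adjusted p = 0.158) was called.

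**Figure D4:**
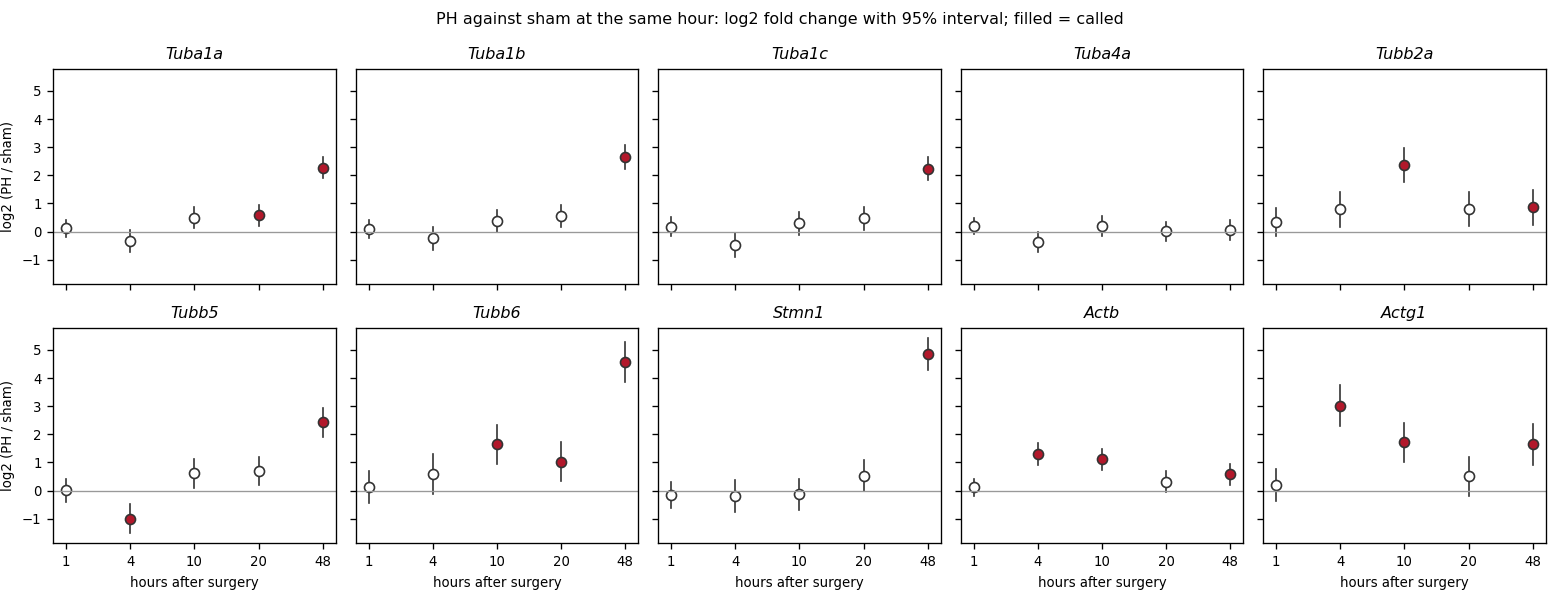
Log2 fold change of PH against sham (y axis, shared scale) by hour after surgery (x axis, 1 to 48 h) for the 10 genes, with 95% intervals and filled points for called differences. Actg1 is highest at 4 h (3.02), Tubb2a at 10 h (2.38) and Stmn1 (4.86) and Tubb6 (4.56) at 48 h, and Tuba4a runs from -0.37 at 4 h to 0.21 at 1 h, with no call.

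Whether the difference between PH and sham itself changed with time was tested directly. The difference at 48 h exceeded that at 10 h for 6 of the 10 genes, where 23.1% of all genes were called: Stmn1 by 5.00 ± 0.40, Tubb6 by 2.91 ± 0.50, Tuba1b by 2.27 ± 0.29, Tuba1c by 1.95 ± 0.30, Tubb5 by 1.82 ± 0.36 and Tuba1a by 1.78 ± 0.27, with adjusted p from 9.21e-17 to 7.91e-05. For Tubb2a it was smaller at 48 h (-1.51 ± 0.43, adjusted p = 0.00643). For Actg1 the change was -0.07 ± 0.50 (95% interval -1.08 to 0.94) and for Actb -0.54 ± 0.27 (adjusted p = 0.125). Against 20 h the same 6 genes were called larger at 48 h, where 13.2% of all genes were called, with values from 1.69 ± 0.27 for Tuba1a to 4.34 ± 0.40 for Stmn1. The 2 tests share the 48 h livers. With the period as a term the calls at both steps were kept, and Actg1 was also called larger at 48 h than at 20 h (1.37 ± 0.48, adjusted p = 0.0367).

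Sham livers differed from C0 at 1, 4 and 10 h, but C0 was taken at ZT2 and these groups at ZT3, ZT6 and ZT12. Only S48 shared the ZT of C0. No liver without surgery was taken at the ZT of S1, S10 or S20, so surgery and hour of day cannot be told apart there. Against C0 the calls were Actg1 higher and Tubb5 lower (-0.53 ± 0.19, adjusted p = 0.0304) at 1 h, where 7.77% of all genes were called, and at 4 h Tubb6 higher with Tuba4a, Tubb2a (-0.94 ± 0.24, adjusted p = 0.000551) and Stmn1 (-0.63 ± 0.22, adjusted p = 0.0105) lower, where 34.4% were. At 10 h Actg1 was higher (1.14 ± 0.33, adjusted p = 0.00315) and Tuba4a (-0.89 ± 0.16, adjusted p = 5.27e-06) and Tubb2a lower, where 29.1% were. At 20 h (12.1% of all genes) and 48 h (8.88%) none of the 10 was called by limma, with 1 and 0 unadjusted p under 0.05. The Tubb5 call at 1 h was lost without C0 replicate 1, 2 or 7 or S1 replicate 3 or 6, and the Stmn1 call at 4 h without C0 replicate 2 or S4 replicate 5. All 5 sham groups share the C0 livers as control. With C0 replicates 1 to 3 alone as the control, 21 of the 50 sham comparisons were called in place of 9. Without C0 replicate 8 the count was 10, and with the period as a term it was also 10, the Tubb5 call at 1 h being lost (-0.47, adjusted p = 0.0929).

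Some of these changes also set the 4 h livers apart from livers taken at the same ZT6 without surgery. Against C4, Tubb6 was higher by 2.36 ± 0.36 in S4 (adjusted p = 9.15e-08) and 2.96 ± 0.40 in X4 (adjusted p = 5.16e-09), and Tuba4a lower, at -1.22 ± 0.18 (adjusted p = 2.74e-08) and -1.59 ± 0.20 (adjusted p = 4.25e-10). The C4 livers were all of period 3, from which no S4 or X4 liver came. The counts were 4 of 10 in S4, where 43.3% of all genes were called, and 7 of 10 in X4, where 45.6% were. With the period as a term, which C0 alone ties to period 3, they were 3 and 7. Actg1 was higher by 3.20 ± 0.40 in X4 (adjusted p = 7.64e-10) and differed by 0.19 ± 0.36 in S4 (95% interval -0.54 to 0.91). Tubb2a, called lower in S4 against C0, differed from C4 by -0.11 ± 0.31 (95% interval -0.73 to 0.51). Neutrophil markers summed to between 7.23 and 43.7 RPKM in S4, between 4.54 and 9.69 in X4 and between 0.412 and 50.4 in C0, where the highest was replicate 8 and the median 1.16. Of the 7 neutrophil markers, 5 were called higher in S4 against C0 and 1 in X4. Stellate and fibroblast markers were lower for 8 of 8 in S4 and 6 of 8 in X4 against C0, and for 8 of 8 and 7 of 8 against C4. They summed to between 31.8 and 51.1 RPKM in S4 and between 37.1 and 48.6 in X4, below every C0 and C4 liver (52.2 to 88.7 and 76.6 to 89.5). T and B cell markers were lower for 4 of 6 against C0 and 5 of 6 against C4 in both groups. They summed to between 0.32 and 1.18 RPKM in S4, between 0.363 and 0.597 in X4, between 0.716 and 4.32 in C0 and between 2.77 and 5.64 in C4. Erythroid markers were lower for 4 of 5 against C4 in both groups and for 0 of 5 against C0. They summed to between 34.2 and 64.7 RPKM in S4, between 40.2 and 55.5 in X4, between 38.0 and 142 in C0 and between 91.7 and 151 in C4. Macrophage markers were lower for 4 of 7 in X4 and 0 of 7 in S4 against C0, and for 4 of 7 and 3 of 7 against C4. Cholangiocyte markers were lower for 3 of 5 in both against C0, with sums from 17.2 to 31.0 RPKM in S4, from 14.7 to 19.4 in X4 and from 26.8 to 58.1 in C0. Against C4 they were lower for 2 of 5 in S4 and 3 of 5 in X4, and 1 was higher in each. The part of these cells in the 4 h values was not tested.

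Against C0 the number of the 10 genes called by hour post-PH was 2 at 1 h (13.5% of all genes), 8 at 4 h (38.2%), 5 at 10 h (36.4%), 7 at 20 h (24.1%), 9 at 28 h (24.9%), 7 at 36 h (35%), 9 at 44 h (39.2%), 9 at 48 h (38.1%) and 9 at 72 h (33.2%). These comparisons share the C0 livers, and of these hours only 48 and 72 h fell at the ZT2 of C0. At 4 h 5 of the 8 were lower (Tuba4a, Tubb5, Stmn1, Tuba1a and Tuba1b), where 26.9% of all genes were called lower, and at 10 h 2 of the 5 (Tuba4a and Stmn1). At 28 h and 72 h Tuba4a was the only one lower. At 28 h, 3 calls were small: Tuba1a (0.50 ± 0.18, adjusted p = 0.0173), Tuba1b (0.61 ± 0.19, adjusted p = 0.00739) and Tuba1c (0.56 ± 0.19, adjusted p = 0.0152), each lost without X28 replicate 1. With the period as a term 4 of the 9 calls at 28 h were kept, and those of Tuba1a, Tuba1b, Tuba1c, Tubb2a (0.54, adjusted p = 0.158) and Actb (0.48, under the fold limit) were lost. The calls of Tubb5 at 1 h (-0.45, adjusted p = 0.0828) and Actb at 72 h (0.36, adjusted p = 0.0945) were lost too. Without C0 replicate 8 the count over all 11 post-PH groups went from 67 to 66 of 110, the call lost being that of Tuba1a at 28 h, which then stood at 0.498, under the fold limit. With a common median the 4 h calls of Tuba1a and Tuba1b were lost (-0.46 each). So were those of Actb at 44, 48 and 72 h (0.20, 0.18 and 0.13) and of Tubb2a at 44 and 48 h (0.56 and 0.45). Calls were gained too. At 48 h Tuba4a was then called and the count was 8. At 36 h the count went from 7 to 9 and at 1 week from 2 to 3. At 20 and 28 h it fell to 6 and 8.

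The return was followed at matched ZT from 48 to 72 h, both at ZT2, whereas no ZT was given for the livers of 1 and 4 weeks. From 48 to 72 h 6 of the 10 genes were lower, where 5.96% of all genes were called and 3.73% called lower: Stmn1 (-1.03 ± 0.29, adjusted p = 0.0122), Tubb5 (-0.98 ± 0.26, adjusted p = 0.00805), Tuba1b (-0.92 ± 0.21, adjusted p = 0.00174), Tuba1a, Tuba1c and Tuba4a. The Stmn1 and Tuba1c calls were lost without X72 replicate 1, and those of Tuba1c, Tuba4a and Tubb5 without X72 replicate 2. From 72 h to 1 week 8 were lower, where 16.3% of all genes were called and 12.2% called lower, led by Tubb6 (-2.46 ± 0.40, adjusted p = 3.15e-06) and Stmn1 (-2.31 ± 0.32, adjusted p = 7.4e-08). The Actb (-0.59 ± 0.22, adjusted p = 0.04) and Actg1 (-1.11 ± 0.40, adjusted p = 0.0372) calls at that step were lost on leaving out any of several livers (X72 replicate 1 or 3, X1W replicate 1 or 2, and for Actb X1W replicate 3) and with a common median. At 1 week Tubb6 (1.35 ± 0.33, adjusted p = 0.000925) and Stmn1 were still higher than C0, where 16.9% of all genes were called. At 4 weeks 0 of the 10 were called by limma against C0, where 5.62% of all genes were, or against C4W, where 0.065% were, with 0 unadjusted p under 0.05 in both. The latter compares 2 livers with 2, and its widest interval, for Actg1, ran from -1.14 to 0.84. For 8 of the 10 the X4W and C4W livers did not overlap, where those of 50.1% of all genes did not, and the median of the 10 differences was -0.20.

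From 4 to 28 h post-PH, both at ZT6, 7 of the 10 genes were higher, where 28.3% of all genes were called and 22.6% called higher. Among them were Stmn1 (2.32 ± 0.32, adjusted p = 3.89e-08), Tubb5 (1.51 ± 0.29, adjusted p = 2.72e-05) and Tuba4a (0.84 ± 0.20, adjusted p = 0.000442). The X4 livers were taken to be of period 2 and the X28 livers were of period 1. From these livers alone, hour and period cannot be told apart in this step. In the next step the X20 livers were of both periods and the X44 livers of period 1. From 20 to 44 h, both at ZT22, 7 were higher, where 16.1% were called and 12.9% called higher, among them Stmn1 (4.87 ± 0.28, adjusted p = 3.96e-24), Tubb6 (3.81 ± 0.35, adjusted p = 1.04e-14) and Tubb5 (2.20 ± 0.25, adjusted p = 4.89e-11). Tubb2a, whose X20 livers ranged from 6.92 to 7.89 and whose X44 livers measured 7.29, 7.61 and 7.26, differed by 0.09 ± 0.30 (95% interval -0.51 to 0.70) over that step.

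The other genes of the same machinery were taken from 5 lists: other tubulins, tubulin and actin folding, microtubule regulators, other actins and actin regulators. At 48 h, against the 27.2% of all genes called in PH against sham, 45 of the 96 listed genes tested were called, all higher. With a common median the count was 22, where 18.4% of all genes were called. Of the other tubulins 7 of 8 were called (median log2 fold change 1.19), with Tubb4b, a beta-tubulin, at 2.02 ± 0.19 (adjusted p = 1e-13) and Tubd1, delta-tubulin of the centriole, at 1.79 ± 0.17 (adjusted p = 2.8e-14). Of the folding genes, which bring tubulin and actin to their native shape, 7 of 18 were called (median 0.46), with the prefoldin subunit Vbp1 at 1.55 ± 0.16 (adjusted p = 1.34e-12) and the tubulin cofactor Tbcb at 0.69 ± 0.15 (adjusted p = 8.24e-05).

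Of the microtubule regulators 7 of 15 were called (median 0.46), with Kif2c, a kinesin that depolymerizes microtubules at the kinetochore, at 4.68 ± 0.21 (adjusted p = 1.33e-29) and Ckap5, a microtubule polymerase, at 2.11 ± 0.15 (adjusted p = 6.22e-20). Of the actin regulators 23 of 54 were called (median 0.46), with Anln, which organizes the contractile ring, at 4.60 ± 0.21 (adjusted p = 2e-29) and Tagln2, an actin-binding protein, at 2.47 ± 0.30 (adjusted p = 3.73e-10). The only other actin that passed the filter, smooth muscle actin Acta2, was called at 1.85 ± 0.56 (adjusted p = 0.00527), with overlapping livers. At the earlier hours, of the 54 actin regulators 5 were called higher at 4 h, where 3.16% of all genes were, 10 at 10 h (3.4% of all genes) and 3 at 20 h (4.49%). Of the 8 other tubulins 0, 1 and 0 were called higher at these hours and 1 was called lower at 4 h.

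**Figure D5:**
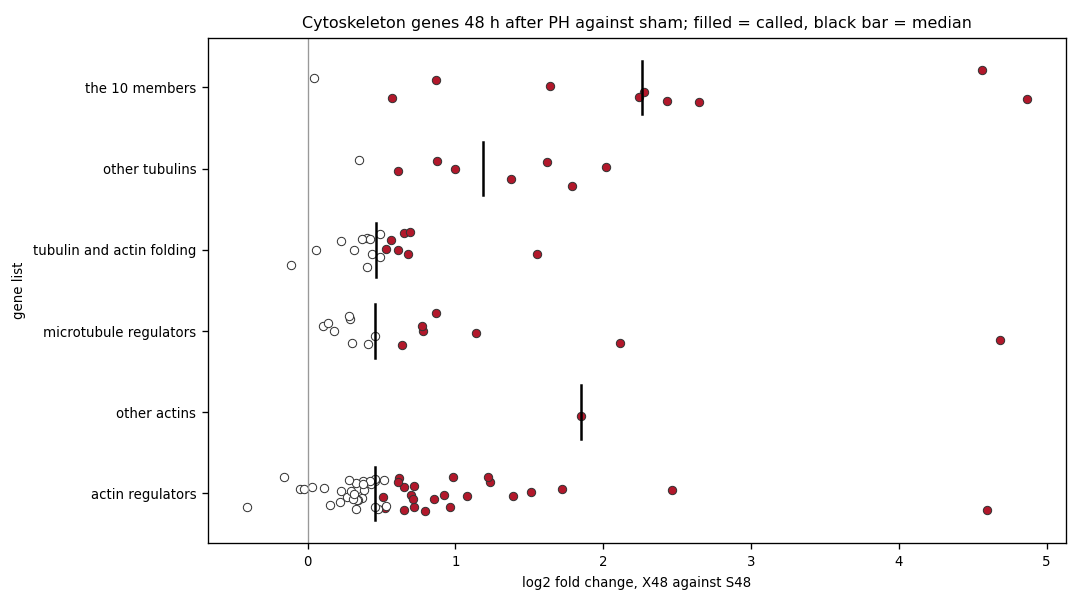
Log2 fold change of X48 against S48 (x axis) for the 10 genes and for each tested gene of the 5 lists (y axis, 1 row a list, points spread vertically for sight only), filled where called, with the median as a black bar. The medians are 2.26 for the 10 genes, 1.19 for the other tubulins and 0.46 for the folding genes and for both lists of regulators.

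Markers of other cell types moved with some of these hours. At 48 h the 7 markers of proliferating cells of any type were all called higher in PH against sham (median log2 fold change 5.68), summing to between 101 and 200 RPKM in X48 and between 0.781 and 1.94 in S48. Stellate cell and fibroblast markers were called higher for 5 of 8, summing to between 61.2 and 110 RPKM in X48 and between 48.3 and 52.5 in S48. Smooth muscle markers were higher for 3 of the 4 tested, with sums between 4.53 and 22.2 in X48 and between 2.49 and 5.11 in S48. No macrophage (7), neutrophil (7) or endothelial (8) marker was called at that hour, and 2 of 8 hepatocyte markers were lower. The part of these cells in the levels of the tubulins, stathmin and actins was not tested.

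For each of the 10 genes the 3 protein-coding genes with the most similar course over the 19 group means were found among 10500 candidates. For Stmn1 they were Shcbp1, Birc5 and Cdk1, each with Pearson's r of 0.996. Birc5 and Cdk1 act in chromosome segregation and in entry into mitosis. For Tuba1a and Tuba1b the first 2 were Calm3, a calmodulin gene, and Sae1, a subunit of the SUMO-activating enzyme (r from 0.971 to 0.986), and for Tuba1c Sae1 (0.970), Calm3 (0.960) and Tubb4b (0.958). For Tubb5 they were Nono, Ppih and Aaas (0.965 to 0.969), and for Tubb6 Rg9mtd2, Kctd3 and 1110059E24Rik (0.944 to 0.947). For Tubb2a Tubb2b, whose row shares reads with it, came first at 0.998 and the next, Cd164, reached 0.850. Actb and Actg1 had no close match, with Wdr1, which helps to disassemble actin filaments, at 0.844 and Grhl1 at 0.857, and for Tuba4a it was Wdr91 at 0.899. Groups in this measure share the same table and normalization, and r is given as a description.

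Among the 10 genes themselves, Tubb5 and Stmn1 had r of 0.912 and Tuba1b and Stmn1 0.959, while Actb and Actg1 had 0.827 with each other and 0.266 and 0.330 with Stmn1. Tubb6, which rose both at 4 h and at 44 h, had 0.774 with Stmn1 and 0.651 with Actg1. Tuba4a had -0.330 with Tubb6 and -0.437 with Actg1.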

How the data were processed

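Poly(A) RNA from 80 mouse livers was read in strand-specific libraries of single reads of 100 bases. The authors aligned reads to mm9 with TopHat2 2.0.13 and Bowtie2, counted them over Ensembl exons with featureCounts, splitting a read with several positions evenly among them, and deposited log2 RPKM for 37991 genes, with -14.29 where a gene had no reads. The table has 84 value columns. Of these, 4 match no labelled sample and were not used, and 7 of the 87 labelled samples have no column (some of X4 and X4W and all of a 60 h group) and were not analysed here.

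The members and gene lists were chosen with earlier results of these data known. Named genes are the members, the 3 genes most like each in course, and from each list the 2 with the largest rise at 48 h. The last were taken among called genes whose X48 and S48 livers did not overlap. The rule also named the largest falls, but no listed gene was called lower. Acta2 is named outside this rule, as the only other actin tested. limma 3.58.1 (R 4.3.3) was fitted to log2(RPKM + 0.25) over 15396 genes above -1.5 in at least 1 library, with all 19 groups in 1 fit and a trend in the prior variance, and was tested on simulated data. Adjusted p-values are Benjamini-Hochberg values over all genes of a comparison. Fold changes are on this scale and understate those of low genes. Depth was estimated from the steps between low values, of which a median of 84.1% per library lay within 0.05 of a whole read (lowest 46.9%, in X28 replicate 2). Python 3.11.15 computed the sums and sequences. Alternatives were another pseudocount, filter, scaling, variance trend, replicate block, set of libraries or control, and each library left out. A term for the experimental period was added after the data were seen. The study gives the number of livers per group and period, and replicates were taken to be numbered in period order.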

Additional observations from a re-analysis of the deposited data

Results flagged for a closer look

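In groups of 4 to 10 livers, a liver far from the others was looked for by Dixon's test at the 95% level, which chance alone passes in about 1 group in 20. Of 80 combinations of a gene and a group, 2 passed. Tuba1b in X1 replicate 1 was highest at 4.55, with the next liver at 4.28, and the gap was 0.776 of the group's range. Actg1 in C0 replicate 9 was lowest at 3.39, with the next at 3.88 and a gap of 0.579 of the range.

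The difference between PH and sham livers changed with the hour for several genes, by limma's test of the difference itself with Benjamini-Hochberg adjustment. From 10 to 48 h it grew by 5.00 for Stmn1, 2.91 for Tubb6, 2.27 for Tuba1b, 1.95 for Tuba1c, 1.82 for Tubb5 and 1.78 for Tuba1a on the log2 scale, and for Tubb2a it changed by -1.51. From 20 to 48 h it grew by 4.34 for Stmn1, 3.54 for Tubb6, 2.09 for Tuba1b, 1.77 for Tuba1c, 1.74 for Tubb5 and 1.69 for Tuba1a. The explanation was not tested.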

How the results depend on the processing

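Of 147 single calls of a member, none reversed under any alternative run, and 120 were kept when each library was left out in turn. All 147 were kept with a pseudocount of 0.1, with a filter of 3 libraries and with no trend in the prior variance, 142 with a pseudocount of 1, 137 with no filter, 132 with only the groups compared and 128 with a common median. The 20 h count of 2 was the least stable: it was 1 with a pseudocount of 1 or a common median, 0 with no filter, 0 with only the groups compared, 6 with replicates 1 to 3 alone, 0 with replicates 4 to 6 alone, and from 0 to 5 with 1 library left out. With the experimental period as a term, a setting chosen after the data were seen, it was 0, the single C4 call was 0 and 133 of the 147 calls were kept. Where both groups were of 1 period, as in X48 against S48 and X72 against X48, that term cannot change the difference. The count of 9 over the sham groups was 21 with C0 replicates 1 to 3 alone. The single C4 call was 0 with no filter or with only the groups compared, and 0 to 1 with 1 library left out. The 4 calls of S4 against C4 were 2 with only the groups compared, and 2 to 4 with 1 library left out. The 45 listed cytoskeleton genes called at 48 h were 22 with a common median. The cause was not tested.

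The replicate numbers did not pair the livers: correlations of same-numbered deviations ran from -0.19 to 0.27. With a replicate block the 20 h count was 5, as it was with the triplicate as a term, and 137 of the 147 calls were kept.

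Depth limits Tubb6 and Stmn1 most, with as few as 26.9 and 28.9 estimated reads in a library. The other 8 members had at least 186.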
